A study of Mus musculus with 13 samples.

Results

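Microglia that had refilled the brain after pharmacological depletion (PBL) were set against microglia that had never been depleted (PL), each 3 h after a first injection of lipopolysaccharide (LPS). The comparison rests on 5 of the 13 ATAC-seq libraries of the study, namely PBL 1_2, PBL 3_4 and PBL 4_5 against PL 1_2 and PL 3_4, and on autosomal peaks. It asks whether repopulated microglia meet a first inflammatory challenge with a different set of open chromatin. All mice were male C57BL/6J animals without a transgene, given a first injection at 10 weeks of age and, 1 week later, a 5-day course by oral gavage. The first injection was phosphate-buffered saline (PBS) in PBL and PL mice. PBL mice were given the CSF1R inhibitor BLZ945 at 169 mg/kg per day, and PL mice its vehicle, a cyclodextrin solution. Both groups then received 1 mg/kg LPS intraperitoneally 5 weeks after the PBS injection, and microglia were collected at 15 weeks of age. The other groups, with 2 libraries each, were PBP, PP, LBL and LL: PBP (BLZ945) and PP (vehicle) received PBS both times, and LBL (BLZ945) and LL (vehicle) received LPS both times, on the same schedule. Each library pooled 2 animals with 40000 cells from each, sorted as single, living, CD11b-high, CD45-intermediate and Ly6c-negative cells, so that a replicate is a pool and not an animal.

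Microglia are the resident macrophages of the brain and depend on signals through the receptor CSF1R for their survival. When an inhibitor of CSF1R is withdrawn after depletion, the few remaining microglia proliferate and fill the brain again. LPS, from the outer membrane of Gram-negative bacteria, activates Toll-like receptor 4 and through it NF-kB. ATAC-seq marks open chromatin by the insertion of a transposase, and a peak is a region where such insertions gather. In a bulk library, fewer cells with an open region and a less open region in every cell cannot be told apart.

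PBL was sorted on an XDP instrument on 1 day, and PL on an Astrios instrument on 2 other days, 1 library on each, so that depletion, sorter and day cannot be told apart within PBL vs PL. PBP vs PP stayed on the Astrios and LBL vs LL on the XDP, and neither shares a library with PBL vs PL. PBP and PP were isolated on different days, and so were LBL and LL, so that depletion and day cannot be told apart there either. PL 1_2 was isolated on the same day as PBP, and PL 3_4 on the same day as PP. The PL libraries also differed from each other more than any other replicates did, with a chi-square per degree of freedom of 1.84, against 0.978 to 1.15 for the other pairs of replicates. Promoter peaks took 56.9% to 59.2% of the counts in PBL, against 58.0% in PL 1_2 and 53.2% in PL 3_4. PBL held 1444372 to 2772688 counts in peaks, and PL 1692751 and 1861139. The number 4 stands in the names of both PBL 3_4 and PBL 4_5, and the labels do not say whether an animal entered both pools. Levels are CPM, counts scaled to library size after TMM normalisation. P-values measure only the spread between pools, and that spread was estimated jointly over all 13 libraries. PL thus shares its estimate with groups whose replicates differed less. Microglial genes were open in the sorted cells: Csf1r averaged 244 CPM in PBL and 250 CPM in PL, and P2ry12, a purinergic receptor of microglia, 272 CPM in PBL and 286 CPM in PL.

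Few regions separated repopulated from original microglia under a first LPS challenge. Of 36769 autosomal peaks tested, 31 were called at an adjusted p under 0.05, which is 0.0843% of them, with 23 higher (0.0626%) and 8 lower (0.0218%) in PBL. For all 31 the PBL libraries lay entirely above or below the PL libraries. These peaks were picked by this same difference, so that the separation is no further support for them. The share of all tested peaks with such a separation is not given here. Summed over the peaks within 50 kb of a start site, 44 of 13363 gene loci were called (0.329%), 23 higher (0.172%) and 21 lower (0.157%) in PBL. By comparison, 2743 peaks (7.46%) were called in PL vs PP, with both groups sorted on the Astrios, and 3700 (10.1%) in PBL vs PBP, where LPS and a change of sorter cannot be told apart. Both share libraries with PBL vs PL. At an unadjusted p under 0.05 there were 3997 peaks. The number called rested on single libraries. It was 998 peaks without PL 1_2, which leaves PL 3_4 alone to stand for PL, and 11 without PL 3_4. It was 7, 15 and 2 without PBL 1_2, PBL 3_4 and PBL 4_5, and none of the 31 peaks was called without each library in turn. With 1 PL library left out, the remaining one is taken to vary like the other groups. DESeq2 called 0 of these peaks and limma-trend 2. A fit of the 5 PBL and PL libraries alone, which takes the spread from them only, called 1 peak and 4 loci.

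**Figure D1:**
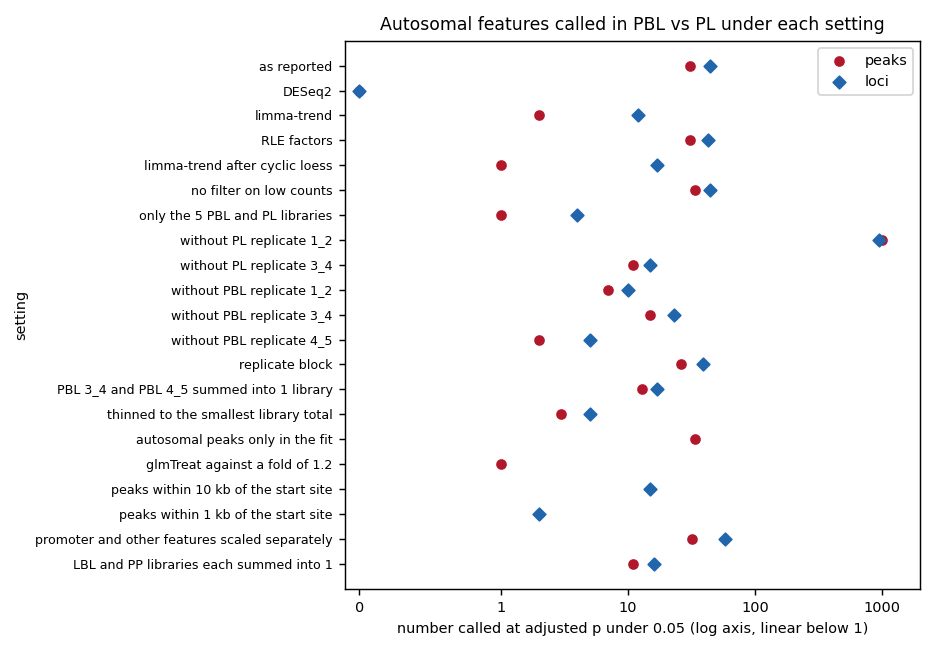
Number of autosomal peaks (circles) and gene loci (diamonds) called in PBL vs PL at an adjusted p under 0.05, on a log axis that is linear below 1, as reported and under each other setting. The counts run between 0 with DESeq2 and 998 peaks without PL 1_2, against 31 peaks and 44 loci as reported.

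Among the regions more open in repopulated microglia, the clearest lay in an intron of Sh3pxd2b, a scaffold protein of podosomes, on chromosome 11, 32349563 to 32350065 (mm10). It had 27.4, 30.5 and 24.2 CPM in PBL 1_2, 3_4 and 4_5, against 11.9 and 7.46 CPM in PL 1_2 and 3_4. The lowest PBL library was thus above both PL libraries, a 2.83-fold difference (log2 1.50 ± 0.26 SE, edgeR quasi-likelihood test, adjusted p = 0.000971). This peak was called in neither of the other depletion comparisons. It had 11.6 and 13.6 CPM in PBP, against 12.6 and 12.0 CPM in PP (log2 0.02 ± 0.38, adjusted p = 0.991). In LBL vs LL it was at 0.54 ± 0.29 (adjusted p = 0.649). Without PL 3_4 the call was lost (adjusted p = 0.136). A peak that the files annotate to the 5' UTR of Zfp503, a zinc finger repressor of transcription, had 64.6, 62.0 and 69.7 CPM in PBL, against 37.9 and 34.1 CPM in PL (chromosome 14, 21987634 to 21988576, log2 0.87 ± 0.16, adjusted p = 0.00343). Every PBL library lay well above both PL libraries at Zfp503, and the call was lost without PL 3_4 (0.107) and without PBL 4_5 (0.0655).

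Of the 2 tested peaks of Cd36, 1 was called higher in PBL. Cd36 is a scavenger receptor of macrophages that takes up oxidised lipoproteins and long-chain fatty acids. Its called peak, at chromosome 5, 17854438 to 17854984 and 4646 bp upstream of the nearest start site, had 50.6, 58.8 and 50.6 CPM in PBL, against 21.3 and 36.2 CPM in PL. The groups did not overlap, though PL 3_4 lay much closer to PBL than PL 1_2 did (log2 0.87 ± 0.18, adjusted p = 0.0205). The call was lost without PL 1_2 (0.103), PBL 3_4 (0.0850) or PBL 4_5 (0.0618). The second peak, at 17857325 to 17857600, averaged 21.1 CPM in PBL and 10.4 CPM in PL and missed the threshold by itself (log2 1.01 ± 0.26, adjusted p = 0.0871).

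An intronic peak of Atp10a, a flippase that moves phospholipids across the plasma membrane, had 49.9, 47.7 and 44.4 CPM in PBL, against 27.3 and 22.4 CPM in PL (chromosome 7, 58686539 to 58687170, log2 0.92 ± 0.19, adjusted p = 0.0205). It was not called without PL 3_4 (0.240), PBL 1_2 (0.0556) or PBL 4_5 (0.0618). The other 2 Atp10a peaks pointed the same way without passing, at log2 0.92 ± 0.24 for the promoter and 0.82 ± 0.25 for a second intronic peak.

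Further promoters were higher by smaller steps on the log2 scale. They were those of the deubiquitinase Usp34 (0.54 ± 0.11), the Polycomb subunit Pcgf5 (0.73 ± 0.15), the GC-rich promoter binding protein Gpbp1 (0.47 ± 0.10) and the metallopeptidase Amz2 (0.50 ± 0.11), each with an adjusted p of 0.0212. An exonic peak at 39143 bp from Incenp, a subunit of the chromosomal passenger complex, was 1.74-fold higher. The remaining 13 higher peaks had folds between 1.43 and 5.63 and adjusted p between 0.0230 and 0.0475. They include promoters of Sc5d, a desaturase of cholesterol synthesis (log2 0.93 ± 0.21), Nampt, the enzyme that salvages nicotinamide into NAD (1.43-fold), and Atox1, a copper chaperone (1.51-fold), and a distal peak at 16158 bp from Alcam, an adhesion molecule (2.13-fold). These were picked out after their values were seen. Of the 23 higher peaks 12 were promoter peaks, while 13433 of all tested peaks (36.5%) were, and none of the 8 lower peaks was one.

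**Figure D2:**
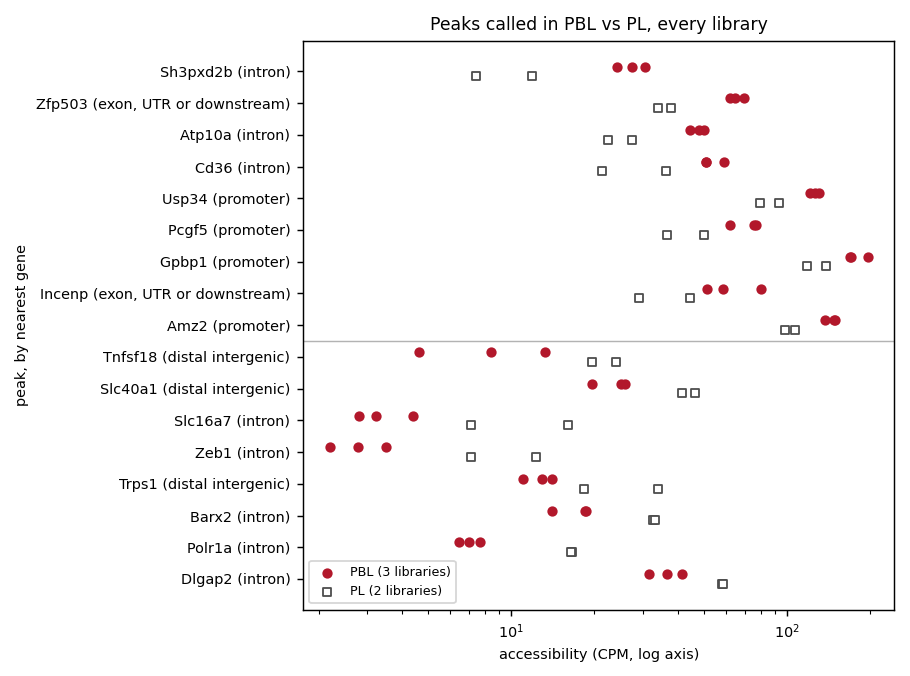
Accessibility in CPM on a log axis at 9 of the peaks called higher (above the line) and the 8 called lower (below it) in PBL vs PL, with 1 circle for each of the 3 PBL libraries and 1 square for each of the 2 PL libraries. At every peak shown, the circles lie apart from the squares, with Sh3pxd2b at 24.2 to 30.5 CPM in PBL and 7.46 and 11.9 CPM in PL.

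The regions less open in repopulated microglia were mostly weak and lay far from start sites. The strongest of them in level that lay within 50 kb of a gene's start site lay 41444 bp away from Slc40a1, which encodes ferroportin, the exporter of iron from cells. It had 19.7, 25.9 and 24.9 CPM in PBL, against 46.2 and 41.5 CPM in PL (chromosome 1, 45880691 to 45881865, log2 -0.87 ± 0.19, adjusted p = 0.0212). It was not called without PL 3_4 (0.0577), PBL 1_2 (0.0973) or PBL 4_5 (0.111). PBL thus stood at about 0.549 of the PL level, without overlap. A peak lying 22623 bp from Tnfsf18, the ligand of the costimulatory receptor GITR, had 8.43, 4.63 and 13.2 CPM in PBL, against 19.6 and 24.0 CPM in PL (log2 -1.25 ± 0.26, adjusted p = 0.0212). Its call was lost without PL 3_4 (0.253), PBL 1_2 (0.0617) or PBL 3_4 (0.166). Intronic peaks of Slc16a7, a transporter of pyruvate and lactate, and of Zeb1, a zinc finger repressor, were lower too. Slc16a7 had 2.81, 3.24 and 4.40 CPM in PBL, against 7.11 and 16.0 CPM in PL (log2 -1.67 ± 0.36, adjusted p = 0.0218). PL 3_4 was far above PL 1_2 there, and without PL 3_4 the log2 difference was -0.96 (adjusted p = 0.702). The Slc16a7 call was also lost without PBL 1_2 (0.0742), PBL 3_4 (0.0862) or PBL 4_5 (0.0963). Zeb1 had 3.51, 2.78 and 2.2 CPM in PBL, against 7.11 and 12.2 CPM in PL (log2 -1.84 ± 0.40, adjusted p = 0.0230), without overlap. The Zeb1 call was lost without PL 3_4 (0.503), PBL 3_4 (0.0685) or PBL 4_5 (0.169). An intronic peak of Polr1a, a subunit of RNA polymerase I, had 6.48 to 7.70 CPM in PBL and 16.5 and 16.6 CPM in PL, and with 1 library left out it was called only without PL 1_2 (0.0285). The other 3 lower peaks, nearest to Trps1, Barx2 and Dlgap2, lay 718278, 84108 and 66646 bp from those start sites, and their log2 differences ran between -1.10 and -0.69.

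Summed over whole loci, 3 genes were called higher in PBL whichever of the 5 libraries was left out: Atp10a, Cd36 and Xylt1, whose product attaches the first sugar of proteoglycan chains. The Atp10a locus had 95.9, 111 and 96.4 CPM in PBL, against 56.1 and 56.0 CPM in PL (log2 0.85 ± 0.14, adjusted p = 0.000234). Its adjusted p stayed between 0.000162 and 0.00964 over the left-out libraries. The Xylt1 locus, with 7 peaks, had 156, 166 and 179 CPM in PBL, against 95.8 and 123 CPM in PL (log2 0.62 ± 0.10, adjusted p = 0.000634). The Cd36 locus had 76.8, 84.2 and 75.1 CPM in PBL, against 33.4 and 52.4 CPM in PL (log2 0.87 ± 0.15, adjusted p = 0.000878). At all 3 loci the lowest PBL library lay above the higher PL library. The called loci were picked by this same difference, so that such a separation is no further support for any of them. The share of all tested loci with such a separation is not given here. DESeq2 did not call them (adjusted p = 0.0622 for Atp10a, 0.0753 for Xylt1 and 0.157 for Cd36), while limma-trend did (0.00866, 0.00866 and 0.0178). With only peaks within 1 kb of the start site none of them was called, and Atp10a was not called within 10 kb either. Cd36 was also not called after thinning to the smallest library total.

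The depletion comparisons made without LPS and after a second LPS injection were read at the same peaks and loci. Of the 31 called peaks, 26 had the same sign in LBL vs LL, against 54.1% of all autosomal peaks. In PBP vs PP 18 had the same sign, against 47.6%. Across all 36769 autosomal peaks, the Pearson correlation of the log2 difference in PBL vs PL was 0.125 with LBL vs LL and -0.046 with PBP vs PP. All 23 loci called higher in PBL vs PL were also higher in LBL vs LL, against 56.2% of all autosomal loci that were higher in PBL vs PL, and 12 were higher in PBP vs PP, against 44.9%. Of the 23, 5 passed the test in LBL vs LL too, which is 21.7% of them and 41.7% of the 12 loci called higher in LBL vs LL (0.0898% of loci). Among them are Cd36, Atp10a, Xylt1 and Alcam. In PBL vs PL the Alcam locus (log2 0.61 ± 0.13, adjusted p = 0.0144) was not called without PBL 3_4 (0.0526) or PBL 4_5 (0.147). In LBL vs LL, Cd36 had 81.9 and 75.0 CPM in LBL, against 26.0 and 28.2 CPM in LL (log2 1.52 ± 0.17, adjusted p = 7.71e-09). Atp10a had 100 and 102 CPM in LBL, against 58.5 and 54.6 CPM in LL (log2 0.84 ± 0.14, adjusted p = 0.000435). At both loci the LBL libraries lay above the LL libraries. Xylt1 and Alcam differed by 0.55 ± 0.11 and 0.66 ± 0.14 on the log2 scale (adjusted p = 0.0104 and 0.0199).

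Without LPS the picture was less complete. In PBP vs PP, Cd36 had 45.6 and 43.5 CPM in PBP, against 24.6 and 17.9 CPM in PP (log2 1.08 ± 0.26, adjusted p = 0.0510), and Xylt1 132 and 135 CPM in PBP, against 95.1 and 83.0 CPM in PP (log2 0.59 ± 0.15, adjusted p = 0.0518). Both lay just short of the threshold, and none of the 23 loci passed it in PBP vs PP (7 loci were called higher there, 0.0524%). Atp10a and Alcam were at 0.41 ± 0.20 and 0.18 ± 0.19. The single Cd36 peak at 17854438 was the 1 peak of the 31 that passed in all 3 depletion comparisons, where 0.12% of peaks were called in PBP vs PP and 0.049% in LBL vs LL. It was at 1.65 ± 0.34 in PBP vs PP (adjusted p = 0.00520) and 1.48 ± 0.22 in LBL vs LL (4.92e-06). The PBL vs PL difference was tested against that in PBP vs PP and that in LBL vs LL, and it was called at none of Cd36, Atp10a, Xylt1 and Alcam. For Atp10a the difference from PBP vs PP was 0.44 ± 0.24 (adjusted p = 0.412), and for Cd36 the difference from LBL vs LL was -0.65 ± 0.24 (0.730).

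Of the 21 loci lower in PBL, 18 were also lower in LBL vs LL (background 56.4%) and 10 in PBP vs PP (48.3%). None passed in either, where 0 of all 13363 loci were called lower in LBL vs LL (541 at an unadjusted p under 0.05) and 13 (0.0973%) in PBP vs PP. The Slc40a1 locus had 62.7, 67.0 and 66.2 CPM in PBL, against 101 and 95.9 CPM in PL (log2 -0.58 ± 0.12, adjusted p = 0.0118). Every other group stood near the PL level, with 87.6 and 88.7 CPM in LBL, 99.7 and 89.0 CPM in LL, 91.2 and 83.9 CPM in PBP, and 96.3 and 93.5 CPM in PP. PBL was thus the lowest group without overlap with any other library, yet the difference of PBL vs PL from LBL vs LL was not called (-0.49 ± 0.17, adjusted p = 0.730). Without PBL 4_5 the Slc40a1 call was lost (0.0813). The other lower loci with the smallest p were Bend5, a BEN domain repressor of transcription (log2 -0.67 ± 0.13), Mthfs, an enzyme of folate metabolism (-0.50 ± 0.11), Rfx4, a transcription factor of neural cells (-0.81 ± 0.18), the zinc importer Slc39a10 (-0.36 ± 0.08) and the folliculin partner Fnip2 (-0.41 ± 0.09). Ifnab, Zfp455, Clec9a, a receptor for dead cells, and Stx19, a syntaxin, followed at -0.78, -0.76, -0.66 and -1.47.

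**Figure D3:**
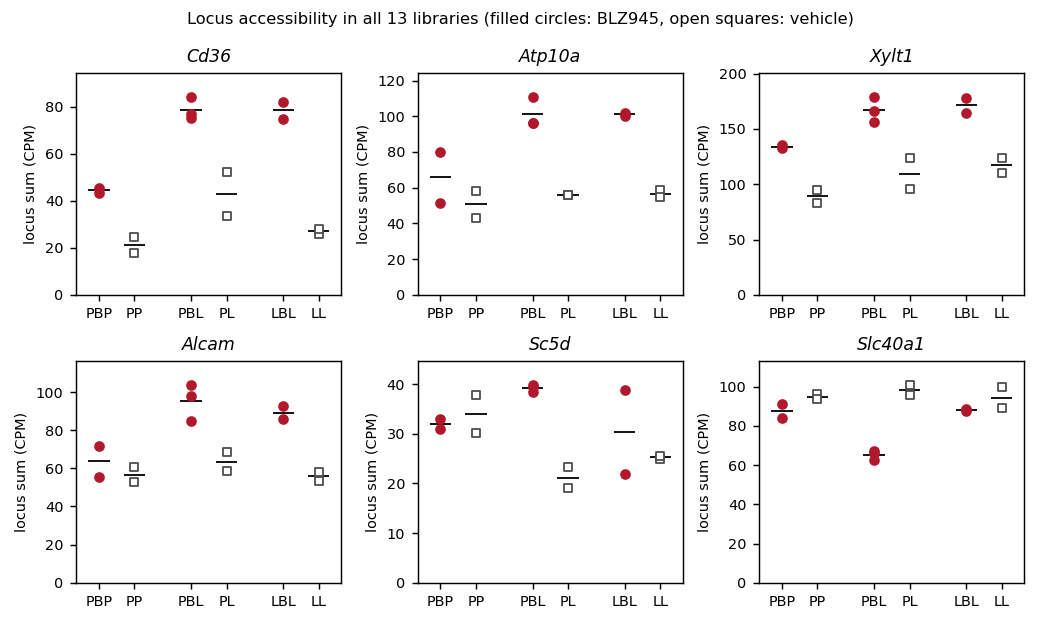
Locus accessibility in CPM (linear axis from 0) in all 13 libraries for 6 genes, with 1 point per library, a bar at each group mean, filled circles for BLZ945 and open squares for vehicle. Cd36, Atp10a, Xylt1 and Alcam lie higher in PBL than in PL and in LBL than in LL, Sc5d lies higher in PBL (38.3 to 39.9 CPM) than in PL (19.1 and 23.3 CPM), and Slc40a1 is low in PBL alone (62.7 to 67.0 CPM).

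**Figure D4:**
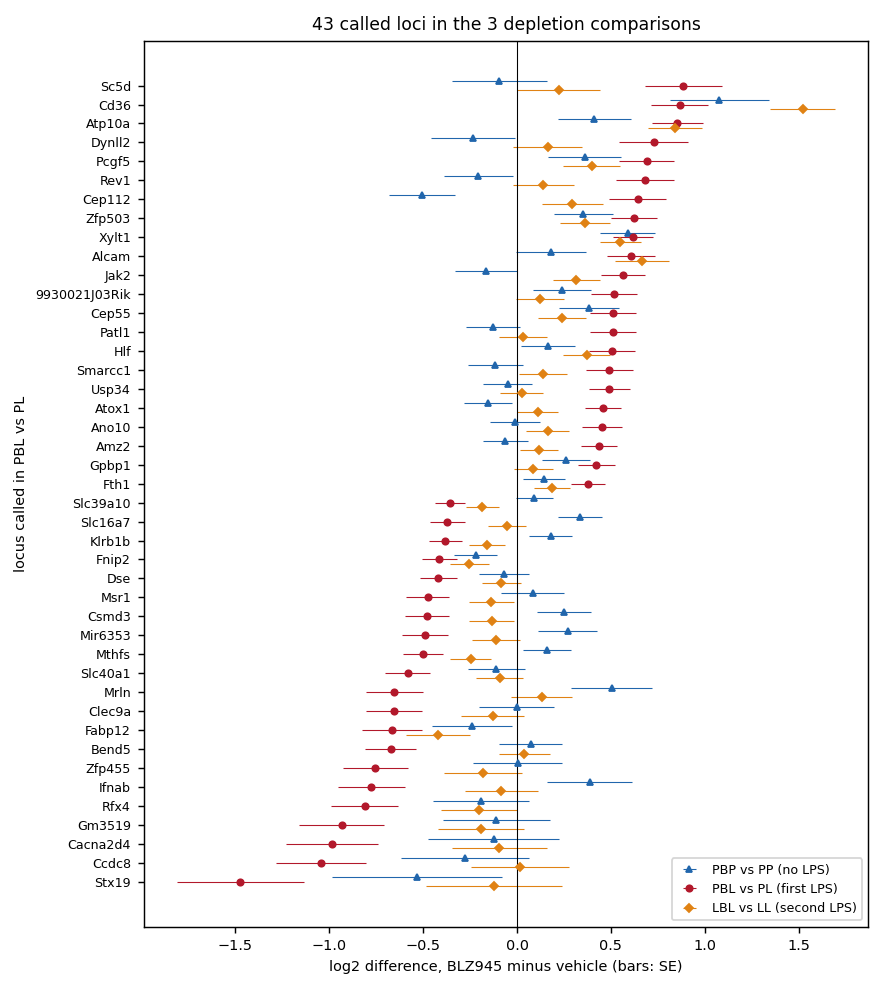
Log2 difference of BLZ945 minus vehicle with its SE at 43 of the loci called in PBL vs PL, for PBP vs PP (triangles), PBL vs PL (circles) and LBL vs LL (diamonds). The 22 loci with positive circles all have positive diamonds, while the triangles lie on both sides of 0.

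Sc5d acts in cholesterol synthesis and Cd36 in lipid uptake, and a list of 32 genes of cholesterol synthesis and uptake, drawn up after these values were seen, was read as a whole. Of its 32 loci 3 were higher (among them Sc5d and Cd36; 0.172% of all loci were), none was lower (0.157% of all loci) and 29 were not called. As the list was drawn up with these calls known, its share of calls is no result about cholesterol genes. The median was 0.07 on the log2 scale, against 0.00 over all autosomal loci. The Sc5d locus had 39.9, 39.4 and 38.3 CPM in PBL, against 23.3 and 19.1 CPM in PL (log2 0.88 ± 0.21, adjusted p = 0.0241). PBL was tight and well above PL at Sc5d, but without PL 3_4, PBL 1_2, PBL 3_4 or PBL 4_5 the adjusted p was 0.305, 0.0650, 0.0716 or 0.128, and LBL vs LL was at 0.22 ± 0.22. Abcg1, which exports cholesterol, was at -0.27 ± 0.10 and not called.

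Iron handling was read in the same way, over 23 tested loci of a list drawn up after the values were seen. Besides Slc40a1, which was lower, 1 locus was higher: Fth1, the heavy chain of the iron store ferritin, with 243, 271 and 240 CPM in PBL, against 200 and 187 CPM in PL (log2 0.38 ± 0.09, adjusted p = 0.0299). The PBL libraries exceeded both PL libraries, and the call was lost without PL 3_4 (0.237), PBL 1_2 (0.0503), PBL 3_4 (0.180) or PBL 4_5 (0.105). The remaining 21 loci were not called, and the median of the list was -0.04.

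The sequences of 3 promoters are given to show the elements counted below: Sc5d and Nampt, whose promoter peaks were called, and Atp10a, whose locus was called but whose promoter peak missed the threshold (26.9 CPM in PBL and 14.2 CPM in PL, adjusted p = 0.0871). They are RefSeq promoter windows of GRCm38.p6, 250 bases before to 50 after the start, 5′ to 3′ on the strand of the gene, for Sc5d (chr9:42264251-42264550, minus strand), Nampt (chr12:32820085-32820384, plus strand) and Atp10a (chr7:58657952-58658251, plus strand). Capitals mark GGGCGG, the GC box bound by Sp factors, and CCAAT, the box bound by NF-Y, on either strand.
Sc5d: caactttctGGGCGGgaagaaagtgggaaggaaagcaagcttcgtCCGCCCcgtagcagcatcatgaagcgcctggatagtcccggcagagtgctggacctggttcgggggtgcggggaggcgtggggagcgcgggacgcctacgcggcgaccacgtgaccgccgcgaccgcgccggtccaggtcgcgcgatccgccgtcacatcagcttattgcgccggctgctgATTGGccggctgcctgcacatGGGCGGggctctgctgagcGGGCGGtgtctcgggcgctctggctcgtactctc
Nampt: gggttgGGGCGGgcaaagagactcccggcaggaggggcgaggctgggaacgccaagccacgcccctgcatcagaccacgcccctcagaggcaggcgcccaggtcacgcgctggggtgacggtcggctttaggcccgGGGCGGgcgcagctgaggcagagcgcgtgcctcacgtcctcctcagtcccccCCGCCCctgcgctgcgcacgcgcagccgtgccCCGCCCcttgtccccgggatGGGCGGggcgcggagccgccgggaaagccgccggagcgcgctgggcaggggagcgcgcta
Atp10a: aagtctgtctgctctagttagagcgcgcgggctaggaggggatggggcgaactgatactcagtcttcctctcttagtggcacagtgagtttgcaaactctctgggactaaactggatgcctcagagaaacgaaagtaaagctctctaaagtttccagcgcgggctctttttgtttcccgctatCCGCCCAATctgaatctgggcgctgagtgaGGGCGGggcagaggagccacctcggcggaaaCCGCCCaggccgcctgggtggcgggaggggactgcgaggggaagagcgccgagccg
In these windows GGGCGG occurs 4 times in Sc5d, 5 times in Nampt and 3 times in Atp10a, and CCAAT once in Sc5d, once in Atp10a and not in Nampt. Of the 12 promoter peaks called higher, 11 had a window in the table, and all 11 windows held GGGCGG, which 68.8% of the 10659 windows at deposited autosomal promoter peaks also held. CCAAT was in 2 of the 11 (39.0% of all), TGANTCA, the AP-1 site, in 1 (4.14%), TGACGTCA, the cAMP response element, in 1 (3.83%, at Gpbp1), and the NF-kB consensus in 2 (5.22%). Neither TCACNCCAC, a sterol regulatory element (1.02%), nor GAGGAAGT, a PU.1 site (3.45%), was in these windows. Such counts describe the letters alone.

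At peaks that respond to LPS, the median difference between repopulated and original microglia was near 0, and its sign depended on the PL library. They were taken from the other 8 libraries, as those called in the same direction in both LL vs PP (4.14% of peaks higher, 1.98% lower) and LBL vs PBP (3.98% higher, 0.878% lower). The 669 peaks that LPS opened there had a median log2 difference of -0.01 in PBL vs PL, with 47.4% above 0, against 50.7% of all autosomal peaks. Of them, 563 were also called higher in PBL vs PBP (6.82% of all peaks) and 544 in PL vs PP (4.78%), which share the PBL and PL libraries with the comparison. Of the 669, 1 was called higher in PBL vs PL, the Xylt1 peak at chromosome 7, 117470111 to 117471015 (log2 0.71 ± 0.16), and none was called lower. With 0.0626% of all peaks called higher and 0.0218% lower, this count is no result about LPS-responsive peaks. The 42 peaks that LPS closed had a median of -0.00191 in PBL vs PL, and none was called. LL vs PP and LBL vs PBP cross from one sorter to the other, as PBL vs PL does. Set against single PL libraries, the median log2 difference of the 669 peaks was 0.09 against PL 1_2 and -0.14 against PL 3_4, and that of the 42 peaks -0.08 against PL 1_2 and 0.19 against PL 3_4.

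Single genes of the response were read as well. Tnf, an inflammatory cytokine, had 81.2, 85.7 and 64.3 CPM in PBL, against 87.0 and 75.0 CPM in PL (log2 -0.09 ± 0.13, adjusted p = 0.842). Map3k8, a kinase that carries Toll-like receptor signals to ERK, had 295, 330 and 312 CPM in PBL, against 306 and 361 CPM in PL (log2 -0.09 ± 0.08, adjusted p = 0.709). The libraries of the groups overlapped at both. Il1b was at -0.16 ± 0.09, Nfkbia, the inhibitor of NF-kB, at 0.09 ± 0.08, Acod1, which makes itaconate, at 0.04 ± 0.19, and the chemokine genes Ccl2, Ccl3 and Ccl4 between -0.01 and 0.06. Socs3, which damps cytokine signalling, had 426, 434 and 421 CPM in PBL, against 405 and 368 CPM in PL, without overlap but not called (log2 0.15 ± 0.08, adjusted p = 0.464). The interferon genes Ifit3 and Irf7 were at -0.16 ± 0.20 and 0.25 ± 0.18.

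No gene of microglial identity in the fixed set was called. Csf1r, the target of BLZ945, was at -0.04 ± 0.09, P2ry12 at -0.07 ± 0.09, the membrane protein Tmem119 at 0.07 ± 0.14 and Mertk, a phagocytic receptor, at 0.04 ± 0.10. Siglech, a microglial lectin, had 54.6, 50.2 and 60.8 CPM in PBL, against 69.9 and 75.0 CPM in PL (log2 -0.38 ± 0.14, adjusted p = 0.240). Sall1, a transcription factor of microglial identity, had 137, 107 and 115 CPM in PBL, against 110 and 88.7 CPM in PL (0.25 ± 0.12, adjusted p = 0.380). The PBL libraries thus lay below PL at Siglech and overlapped with PL at Sall1, with no call at either. Of the fixed set of 18 genes none of the 17 tested was called, and Apoe had no peak.

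Lists of genes that fit microglia and LPS had medians near 0. Of the 18 lists 17 held no called locus, and with 0.329% of all loci called, lists of this size would seldom hold one. The homeostatic microglia list (40 tested loci) had a median of -0.04, the inflammatory cytokines and NF-kB targets (43) of -0.01, the negative regulators of LPS signalling (37) of 0.02, the interferon-stimulated genes (41) of 0.04 and the disease-associated or primed microglia genes (34) of -0.01. Near the threshold, without passing, were Mef2c, a transcription factor of microglia (-0.31 ± 0.08, adjusted p = 0.0627), Atp6v0d2, a subunit of the lysosomal proton pump (-0.50 ± 0.13, 0.0613), Cebpb, an inflammatory transcription factor (0.46 ± 0.12, 0.0714), and Tlr4, the LPS receptor (-0.40 ± 0.11, 0.0708). Microglial identity transcription factors (23), CSF1 receptor signalling (26), immediate early and AP-1 genes (32), heat shock and dissociation stress (21), antigen presentation (29), and glycolysis, HIF and mTOR (35) had medians between 0.01 and 0.05. Proliferation (41), Toll-like receptor signalling components (37), glucocorticoid receptor targets (17), histone and DNA methylation modifiers (39), TGF-beta receptors and SMADs (27) and purinergic and lysophospholipid receptors (20) had medians between -0.03 and 0.07. The circadian clock list had 1 of 22 loci called, Hlf, a clock-controlled transcription factor, with a mean of 97.8 CPM in PBL and 68.9 CPM in PL (log2 0.51 ± 0.12, adjusted p = 0.0339), and a median of 0.10. The Hlf call was lost without PL 3_4 (0.198), PBL 1_2 (0.0965), PBL 3_4 (0.0587) or PBL 4_5 (0.168).

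**Figure D5:**
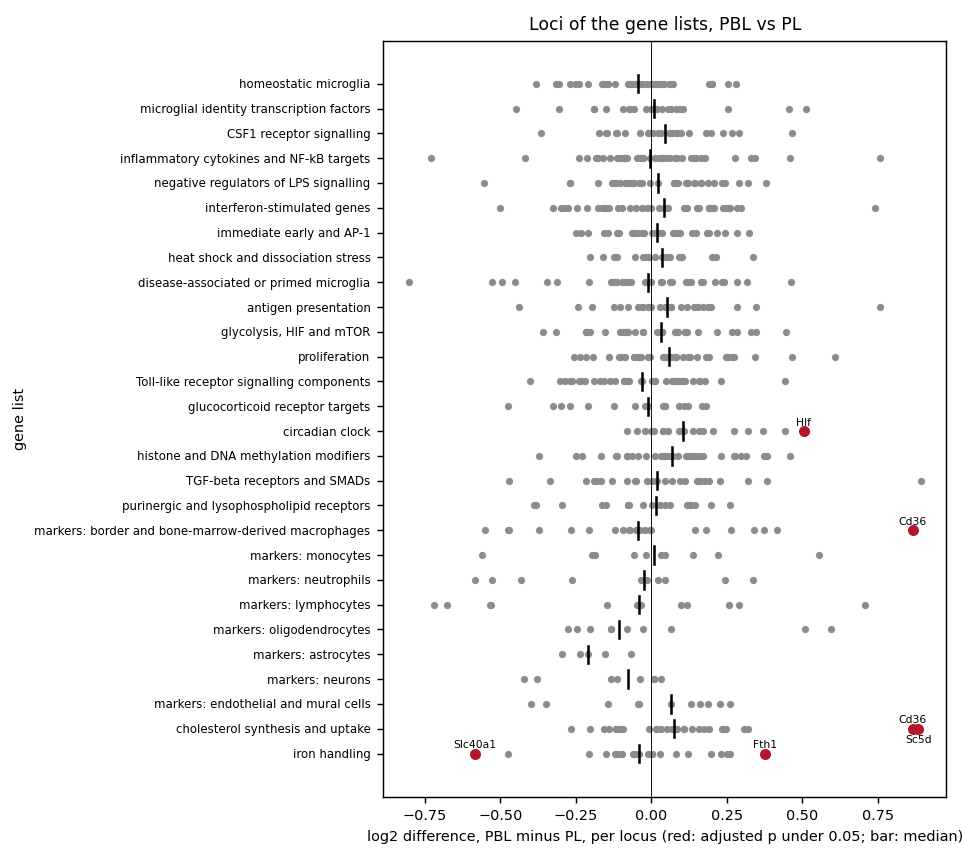
Log2 difference of PBL minus PL for the tested loci of 28 gene lists, 1 called locus not drawn (small points), with called loci in red and named, and a bar at the median of each list. Medians lie between -0.21 and 0.10, taken over all tested loci, and the 5 called loci drawn are Hlf, Cd36, Sc5d, Fth1 and Slc40a1.

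Markers of other cells were read because a sort can admit them. Among markers of macrophages from the brain's borders or from bone marrow, 1 of 22 tested loci was called, which is Cd36, and the summed level was 1453 to 1524 CPM in PBL, against 1364 and 1585 CPM in PL. Of the 32 genes listed, 10 had no peak, Lyve1, Pf4, Clec10a and Mgl2 among them, and the other 22 were tested. Monocyte markers summed to 606 to 659 CPM in PBL, against 603 and 679 CPM in PL. Of 21 listed, 11 had no peak, Ly6c2 and Chil3 among them, and 10 were tested. Neutrophil markers summed to 303 to 311 CPM in PBL, against 290 and 334 CPM in PL. Of 19 listed, 9 had no peak, Ly6g and S100a8 among them, and 10 were tested. In these 3 lists the PBL range lay within the PL range. Lymphocyte markers summed to 441 to 462 CPM in PBL, against 454 and 519 CPM in PL, and endothelial and mural markers to 460 to 528 CPM, against 482 and 578 CPM. Oligodendrocyte markers (486 to 492 CPM in PBL, against 516 and 542 CPM in PL) lay lower in PBL without overlap. Astrocyte markers (513 to 562 CPM in PBL, against 556 and 697 CPM in PL, all 5 tested loci below 0) and neuron markers (235 to 253 CPM in PBL, against 251 and 268 CPM in PL) overlapped. No peak was found for 13 of 25 lymphocyte, 11 of 16 astrocyte and 12 of 20 neuron markers, Cd3e, Gfap and Slc17a7 among them. No locus of the 7 lists other than that of macrophages was called, and the part of other cells in the calls was not tested.

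The difference between depletion comparisons was also tested across all peaks. Set against PBP vs PP, PBL vs PL differed at 22 peaks (0.0598%), 17 higher (0.0462%) and 5 lower (0.0136%). Set against LBL vs LL, it differed at 0 peaks, with 2554 at an unadjusted p under 0.05 and 0 by DESeq2 and by limma-trend. Set against the mean of both, it differed at 11 peaks (0.0299%), 8 higher (0.0218%) and 3 lower (0.00816%). In a model with additive effects of challenge, depletion and sorter, this last difference equals the effect of the sorter, and it also carries the isolation days, which differ within all 3 depletion comparisons. Sorter, day and a response of depleted microglia to a first LPS injection cannot be told apart in it. The promoter of Dusp1, a phosphatase that ends MAP kinase signals, showed it with 94.4 CPM in PBL and 71.2 CPM in PL, 80.5 CPM in PBP and 112 CPM in PP, and 67.2 CPM in LBL and 87.5 CPM in LL. The difference of PBL vs PL from the mean of the others was 0.83 ± 0.17 (adjusted p = 0.0314). By itself none of the 3 comparisons was called at Dusp1 (log2 0.41 ± 0.13 in PBL vs PL, -0.46 ± 0.16 in PBP vs PP and -0.38 ± 0.14 in LBL vs LL; adjusted p = 0.176, 0.252 and 0.450), and PBL 3_4 (83.7 CPM) lay below PL 1_2 (85.4 CPM). The calls against PBP vs PP and against the mean of both were all lost without PL 3_4, and also without PBL 1_2. Without PL 3_4, the differences at the peaks named for these tests were smaller, except at a peak nearest to Fmnl2. That of Dusp1 from the mean was 0.54, against 0.83 with PL 3_4, and that of the Srsf2 promoter from PBP vs PP 0.49, against 0.85. That of the Inpp5k promoter from PBP vs PP was 1.00, against 1.08. For Fmnl2 the difference from the mean was -1.92, against -1.89.

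Promoters as a class were tilted towards PBL. Over all 13433 tested promoter peaks the median log2 difference was 0.09, and it was -0.07 over 11565 intronic and -0.06 over 8967 distal intergenic peaks. Against PL 1_2 alone these medians were 0.00304, -0.000451 and -0.00487, and against PL 3_4 alone 0.16, -0.15 and -0.12. The tilt was thus seen against PL 3_4 and not against PL 1_2, and in PBP vs PP and LBL vs LL the promoter medians were -0.01 and 0.01. When promoter and other peaks were scaled separately, a setting chosen after seeing this, 32 peaks were called, 22 higher and 10 lower, of which 19 were among the 31. The peaks of Sh3pxd2b, Zfp503, Cd36, Atp10a and Incenp and the promoter of Pcgf5 stayed called. The promoters of Usp34, Gpbp1, Amz2, Sc5d, Atox1 and Nampt did not. Of the lower peaks, those nearest to Slc40a1, Tnfsf18, Slc16a7, Zeb1 and Trps1 stayed called, and those nearest to Barx2, Polr1a and Dlgap2 did not.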

How the data were processed

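ATAC-seq of sorted mouse microglia was analysed in 13 libraries. Values are estimated counts per peak over 1 common peak set, as deposited by the authors in steps of 0.5; the counting tool is not stated in the labels or headers. Tools listed without roles or order in the submitters' processing notes include MACS2 2.1.1, Bowtie2 2.2.6 and cutadapt 1.9.1, with the build GRCm38 (mm10). Per the file headers, annotation and distance to the nearest start site come with each peak, and the sorter and age of each library with the sample table.

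Counts were rounded, filtered with filterByExpr (minimum count 10; 1104 of 38620 peaks removed), scaled by TMM and tested with edgeR 4.0.16 (R 4.3.3), a robust quasi-likelihood fit over 6 group means. P-values were adjusted by Benjamini-Hochberg over all 37516 tested peaks and called under 0.05; the 747 tested X and Y peaks are not reported (0 called in PBL vs PL). A locus sums the peaks whose nearest start site lies within 50 kb. SE is the log2 difference over the square root of F. DESeq2 1.42.0, limma 3.58.1, other scalings, filters, windows and left-out libraries were alternatives. The test was checked on simulated data.

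Library totals ran from 927840 to 2772688 counts, which limits weak peaks most. The members, lists and tests were chosen with earlier results of these data known. Named peaks were up to 10 called ones per direction by p; fewer than 10 lower peaks were filled up with gene loci. List members are named only where their unadjusted p was under 0.05 or they were in the fixed set, a restriction made after values were seen, as were the cholesterol and iron lists. The replicate numbers do not pair the samples: numbers stand for different animals. Some features counted among the calls and lists are not reported here by name.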

Additional observations from a re-analysis of the deposited data

Results flagged for a closer look

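The peaks below were picked out because the depletion difference after a first LPS injection (PBL vs PL) differed, by a test of the difference itself, from that in the other depletion comparisons. None was called without PL 3_4, and the part of the sorter, which differs within PBL vs PL alone, and of the isolation day, which differs within all 3 comparisons, cannot be told apart.

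Set against PBP vs PP, the log2 difference was 1.72 ± 0.35 at a peak nearest to Mir704 (adjusted p = 0.0182), 0.852 ± 0.17 at the promoter of Srsf2, a splicing factor (0.0182), and 1.08 ± 0.22 at the promoter of Inpp5k, an inositol phosphatase (0.0182), all by edgeR's quasi-likelihood test. It was -1.17 ± 0.25 at a peak nearest to Celf4 (0.0262), -0.714 ± 0.16 at the promoter of Ppp2r1a, a scaffold of phosphatase 2A (0.0316), and -3.05 ± 0.68 at the Slc16a7 intron (0.0360). The Srsf2 promoter averaged 137 CPM in PBL and 121 CPM in PL, against 130 CPM in PBP and 207 CPM in PP, so that PP was the group apart. Ppp2r1a averaged 164 CPM in PBL and 171 CPM in PL, against 179 CPM in PBP and 112 CPM in PP, where PP again stood apart. By the same test, PBP vs PP was itself called at Srsf2 and Ppp2r1a (adjusted p = 0.00212 and 0.00154), and PBL vs PL was not (0.562 and 0.880). PP was also the highest group at Mir704, with 41.6 CPM, against 31.7 CPM in PBL, 17.6 CPM in PL and 21.3 CPM in PBP. Inpp5k averaged 95.9 CPM in PP, against 69.9 CPM in PBL, 51.8 CPM in PL and 60.8 CPM in PBP. The Slc16a7 peak was weak, with 3.48 CPM in PBL and 11.5 CPM in PL, against 8.19 CPM in PBP and 3.10 CPM in PP. Its PL libraries had 7.11 and 16.0 CPM.

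Set against the mean of PBP vs PP and LBL vs LL, the log2 difference was 0.826 ± 0.17 at the promoter of Dusp1, 0.633 ± 0.13 at that of the immediate early gene Egr1 and 0.664 ± 0.14 at that of the splicing factor Rbm39 (adjusted p = 0.0314 each). It was -2.42 ± 0.50 at Slc16a7 (0.0314), -1.89 ± 0.41 at a peak nearest to Fmnl2 (0.0343) and -0.880 ± 0.20 at Celf4 (0.0473). Egr1 averaged 152 CPM in PBL and 135 CPM in PL, 119 CPM in PBP and 156 CPM in PP, and 104 CPM in LBL and 150 CPM in LL. By itself LBL vs LL was called at Egr1 (log2 -0.52 ± 0.11, edgeR's quasi-likelihood test, adjusted p = 0.0286). PBL vs PL (0.18 ± 0.10, adjusted p = 0.517) and PBP vs PP (-0.39 ± 0.13, adjusted p = 0.225) were not called there.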

How the results depend on the processing

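Direction was kept at all 31 peaks and 44 loci by DESeq2 and limma-trend, but the number called was not. Against 31 peaks and 44 loci, DESeq2 called 0 and 0, limma-trend 2 and 12, limma-trend after cyclic loess 1 and 17, a fit of the 5 PBL and PL libraries alone 1 and 4, thinning to the smallest total 3 and 5, PBL 3_4 and PBL 4_5 summed 13 and 17, and LBL and PP each summed into 1 library (added after seeing the data) 11 and 16. A test against a fold of 1.2 called 1 peak, and windows of 10 and 1 kb 15 and 2 loci. Leaving out 1 library gave 2 to 998 peaks and 5 to 942 loci. For the difference from PBP vs PP (22), DESeq2 called 0, limma-trend 47, the summed libraries 0 and left-out libraries 0 to 1003. For that from LBL vs LL (0), left-out libraries gave 0 to 70. For that from the mean of both (11), DESeq2, limma-trend and the summed libraries gave 0 and left-out libraries 0 to 738. The causes were not tested.

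With the replicate block, 26 peaks and 39 loci were called, of which 17 and 27 were among the 31 and 44, and the differences from PBP vs PP and from the mean of both had 111 and 19 calls. The groups share 2 numbers that stand for different animals, and deviations of same-numbered libraries correlated at -0.018 to 0.166. The highest of these values was that between PBL and PL, and the next, 0.095, that between PL and PBP. Under the block Tnf was at 0.0551 and Ccl3 at 0.0244.

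Signs turned at 11 loci, none of them called. Left-out libraries gave log2 ranges of -0.200 to 0.0508 for Tnf, -0.0533 to 0.0399 for Ccl3, -0.0598 to 0.0751 for Ccl4, -0.00829 to 0.108 for Ccl2, -0.179 to 0.304 for Acod1, -0.281 to 0.179 for P2ry12, -0.0121 to 0.153 for Tmem119, -0.205 to 0.0386 for Map3k8 and -0.0509 to 0.114 for Mertk. Cyclic loess gave -0.0154 for Ccl4 and 0.00490 for Csf1r, and thinning -0.0530 for Mertk. The 10 kb window gave -0.00483 for Ccl4 and -0.0316 for Mertk. The 1 kb window gave -0.0557 for Ccl2, -0.0358 for Ccl4, -0.0627 for Mertk and 0.0140 for Vcam1. Separate promoter scaling gave 0.0590 for Ccl3, -0.0181 for Ccl4 and 0.0273 for Csf1r.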
